A study of Mus musculus with 9 samples.

Results

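The AP-1 transcription factor family was followed in mouse mammary cells across luminal differentiated (LD) cells and 2 kinds of mammary organoid. The genes were chosen by symbol: Fos, Fosb, Fosl1, Fosl2, Jun, Junb, Jund and Atf3, with every array probe set annotated to one of these symbols alone. This gave 8 genes and 12 probe sets, of 18194 genes and 34958 probe sets with a single gene on the array, and no probe set of a member was shared with another gene. RNA was hybridized to Affymetrix expression arrays, 9 in all, and each kind had 3 biological samples, named here by their letters A to C. The LD cells (labelled Lum) were freshly purified from the mammary gland by FACS as lineage-negative, EpCAM-high, CD49f-low and CD61-negative cells, and were not cultured. Organoids from mammary stem cells (MaSC organoids, labelled Org) were grown from FACS-purified MaSCs. Organoids from YAP-induced MaSCs (yMaSC organoids, labelled yOrg) came from LD cells in which wild-type YAP, the transcriptional coactivator of the Hippo pathway, had been expressed from a doxycycline-inducible lentiviral vector, and they were passaged without doxycycline. Per the study's methods, mammary cells were taken from young adult virgin C57BL/6J mice where no other strain is named. Both kinds of organoid were kept in Matrigel under a medium with the growth factors EGF and bFGF, with heparin, and with noggin, which blocks BMPs, and R-Spondin1, which raises Wnt signals. No sample of LD cells had been cultured and no sample of organoids had been taken from the gland, so that cell state, culture and fresh sorting cannot be told apart in any comparison with LD cells. Whether the lettered samples came from separate animals is not stated, and p-values measure the spread between these samples.

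AP-1 is a dimer of basic leucine zipper (bZIP) proteins. Fos proteins bind DNA mainly as partners of Jun proteins, Jun proteins can also pair with each other, and Atf3 pairs with Jun proteins or with itself. The dimers bind the TPA response element (TRE) or the related cAMP response element (CRE). Several of these genes are immediate early genes: growth factors, stress and tissue handling raise their transcripts within minutes through MAP kinases, serum response factor and CREB, without new protein synthesis. In the mammary gland AP-1 is known as a mediator of growth factor signaling, and in many cells TEAD factors, the DNA-binding partners of YAP, share enhancers with it.

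The DNA just before the start of 4 members is shown because these genes carry the results that follow: Fosb and Atf3 had some of the largest decreases of the array, Jun is the common partner, and Fos is the classic immediate early member. Each run is the 150 bases before the RefSeq transcript start, 5′ to 3′ on the gene's strand, from the GRCm38.p6 assembly, and capitals mark the only motif matches that were found in these runs. Fos lies at chr12:85473740-85473889 on the plus strand, Fosb at chr7:19310046-19310195 on the minus strand, Jun at chr4:95052223-95052372 on the minus strand and Atf3 at chr1:191183334-191183483 on the minus strand.
Fos: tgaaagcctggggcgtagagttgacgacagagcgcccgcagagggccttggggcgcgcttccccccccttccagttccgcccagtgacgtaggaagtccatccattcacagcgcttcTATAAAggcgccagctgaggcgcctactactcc
Fosb: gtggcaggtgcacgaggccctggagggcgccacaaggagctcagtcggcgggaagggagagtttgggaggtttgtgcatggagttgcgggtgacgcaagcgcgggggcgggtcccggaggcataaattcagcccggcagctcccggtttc
Jun: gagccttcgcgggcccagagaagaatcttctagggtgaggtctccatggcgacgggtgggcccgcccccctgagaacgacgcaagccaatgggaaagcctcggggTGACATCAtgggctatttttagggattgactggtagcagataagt
Atf3: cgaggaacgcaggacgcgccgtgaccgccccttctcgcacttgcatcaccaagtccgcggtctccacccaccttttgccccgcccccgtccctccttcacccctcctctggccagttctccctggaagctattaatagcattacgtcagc
Motifs were searched on both strands of the 300-base promoters, 250 bases before to 50 after the start, which were found for 7 of the 8 members, all but Fosl1. The capitals in Jun are the TRE-like letters TGACATCA, at -45 to -38 from the start, which 3.62% of 32851 promoters hold. The capitals in Fos are TATAAA, at -33 to -28, found in 13.6% of promoters, and Junb held the same letters from base 1 to base 6 after its start. None of the 7 promoters held a TRE (TGACTCA or TGAGTCA, in 5.20% of promoters), a CRE (TGACGTCA, 1.79%), a TEAD element (GGAATG, 14.7%) or a match to the serum response factor CArG box (1.63%). These are exact matches of letters in a short window, and other variants of the letters were not searched for. The printed runs hold part of the CRE letters, TGACGT in Fos and its reverse complement ACGTCA in Atf3. A missing match therefore does not show that a working element is absent, and the matches say nothing of binding, in the window or elsewhere in these genes.

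Values are log2 intensities, normalized and summarized by RMA. The lower quartile of all probe sets was between 3.47 and 3.59 on the 9 arrays, and a group near that level has only an upper limit, so that a difference from it is a lower limit. Levels are compared between arrays for one probe set, never between probe sets.

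The labelled cell types were checked by marker lists. Of 9 luminal markers with a probe set of their own, 7 were lower and 1 (Gata3) higher in each kind of organoid. In LD cells Krt8 read 14.13 to 14.26 and Trp63, the basal transcription factor, 3.60 to 3.98, near the lower quartile, and 6 of 8 basal markers were higher in MaSC organoids and 7 in yMaSC organoids. The LD arrays also held leukocyte transcripts, although the cells had been sorted as lineage-negative. All 10 of 10 leukocyte markers were lower in both kinds of organoid, with median differences of -2.70 and -2.83 log2. Their mean level was 6.65 to 7.38 in LD cells, 4.06 to 4.31 in MaSC organoids and 4.03 to 4.15 in yMaSC organoids. Among the defining ones, Ptprc (CD45) read 8.17 to 8.94 in LD cells and 2.64 to 2.99 in organoids, below the lower quartile. Fibroblast markers had 3 of 6 genes lower and 1 higher, and their mean level was 6.18 to 7.93 in LD cells, highest in LD cells B, against 5.10 to 5.51 in organoids. No endothelial marker of 5 passed. Their mean level was 3.64 to 5.46 in LD cells, highest in LD cells B, against 3.51 to 3.66 in organoids. In LD cells B Cdh5 read 6.32 (3.35 and 3.27 in A and C), Emcn 6.31 (2.90 and 3.39) and Pecam1 5.84 (4.09 and 4.08). Kdr and Tie1 differed less between the LD arrays. The part of leukocytes, fibroblasts and endothelial cells in the AP-1 levels of LD cells was not tested.

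In both kinds of organoid 7 of the 8 AP-1 genes were lower than in LD cells and none was higher. The largest decreases were those of Fosb, Atf3 and Fosl1, the smallest that of Jund, and Fosl2 did not pass the test. Many other genes differed too: against LD cells 15.2% of all genes were lower and 22.1% higher in MaSC organoids, and 14.3% were lower and 21.6% higher in yMaSC organoids (limma, with p-values adjusted over all genes by Benjamini-Hochberg and called under 0.05). The median difference of the AP-1 genes was -2.60 and -2.58 log2 in the 2 kinds of organoid, against -0.02 and -0.01 for all genes. All 7 of these genes had every organoid array below every LD array in each comparison, as did 21.3% and 19.9% of all genes. Of the 12 probe sets, 10 were lower in each comparison and 0 higher, where 16.0% and 15.4% of single-gene probe sets were lower and 19.9% and 19.4% higher. Both comparisons use the same 3 LD arrays, so their counts are not independent of each other. The members were chosen with earlier results of these data known, so the contrasts with all genes are not independent of that choice. In bulk RNA, fewer cells that express a gene and less of its RNA per cell cannot be told apart.

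**Figure D1:**
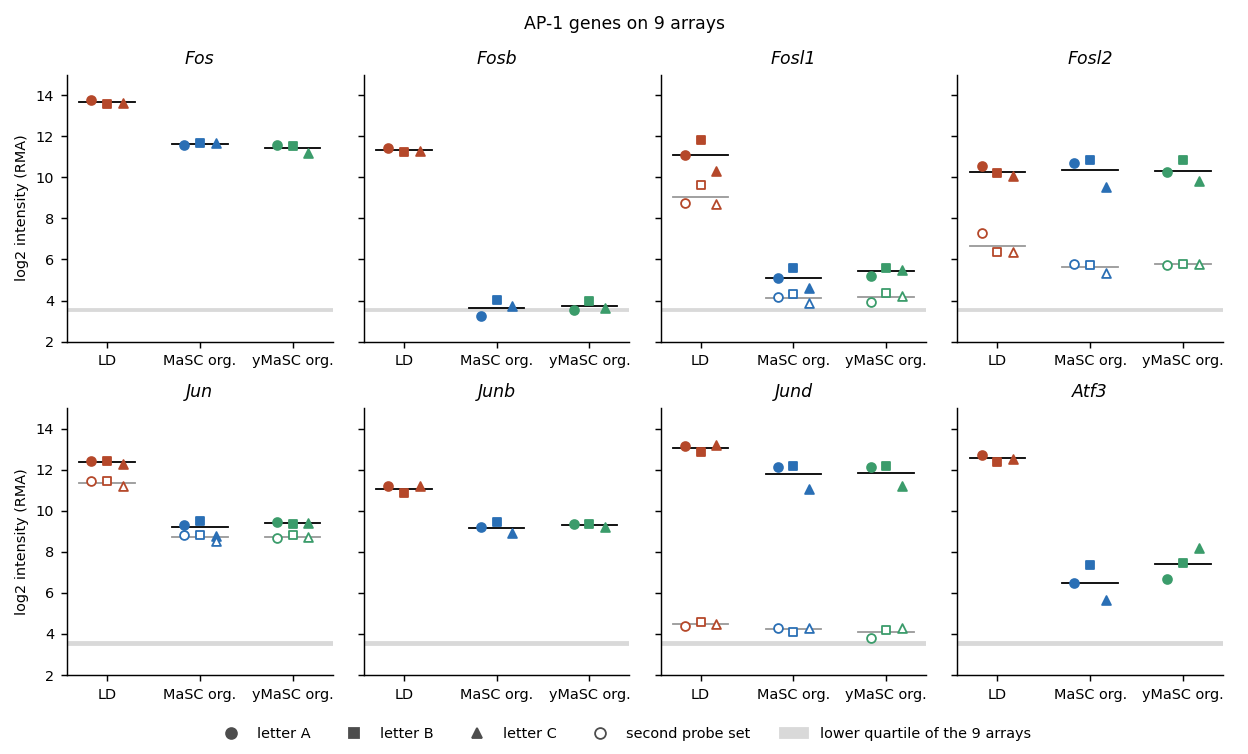
Level of each AP-1 gene (log2 intensity, vertical axis) on the 9 arrays, by kind of sample (LD cells, MaSC organoids, yMaSC organoids). Symbols mark the letter, open symbols the second probe set of a gene, horizontal lines the group means, and the gray band the lower quartiles of the arrays (3.47 to 3.59). Organoids lie below every LD array for all filled symbols except those of Fosl2, and Fosb in organoids, 3.23 to 4.02, lies at the gray band.

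Among the genes that encode Fos proteins, Fosb had the largest difference. Its level was 11.41, 11.25 and 11.27 in LD cells A, B and C, 3.23, 4.02 and 3.73 in MaSC organoids, and 3.53, 3.98 and 3.62 in yMaSC organoids. The LD arrays lay close together, and a gap of 7.23 log2 separated the lowest of them from the highest organoid array. The difference was -7.65 log2 (SE 0.20, adjusted p = 2.93e-07) in MaSC organoids, at least 201-fold, and -7.60 (SE 0.20, adjusted p = 3.24e-07) in yMaSC organoids, at least 194-fold. Ordered from the largest decrease, Fosb was number 1 of the 18194 genes in the first comparison and number 2 in the second.

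Fosl1 encodes Fra-1, a Fos protein without the strong transactivation domain of Fos. Its gene lies at chr19:5447698-5455938. The probe set with the higher mean gave 11.09, 11.79 and 10.32 in LD cells, 5.12, 5.58 and 4.60 in MaSC organoids, and 5.20, 5.56 and 5.49 in yMaSC organoids. LD cells B were the highest and LD cells C the lowest of their kind, but the groups stood 4.74 log2 apart. The decrease was -5.97 log2 (SE 0.36, adjusted p = 9.52e-06), 62.5-fold, in MaSC organoids and -5.65 (SE 0.36, adjusted p = 1.31e-05), 50.2-fold, in yMaSC organoids. The second probe set shared both calls, with -4.90 and -4.87 log2 and adjusted p = 5.24e-06 and 6.54e-06 over all single-gene probe sets.

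Fos itself, the founding member, read 13.77, 13.56 and 13.60 in LD cells, 11.55, 11.65 and 11.66 in MaSC organoids, and 11.59, 11.53 and 11.20 in yMaSC organoids. All 6 organoid arrays were below all 3 LD arrays, as for 17.1% of all genes, but remained far above the lower quartile. The decrease was 4.07-fold (-2.02 log2, SE 0.12, adjusted p = 9.52e-06) in MaSC organoids and 4.61-fold (-2.20 log2, SE 0.12, adjusted p = 7.07e-06) in yMaSC organoids.

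Fosl2, which encodes Fra-2, stood apart from the others, and its probe sets disagreed. The one with the higher mean gave 10.57, 10.21 and 10.05 in LD cells, 10.67, 10.86 and 9.51 in MaSC organoids, and 10.24, 10.82 and 9.82 in yMaSC organoids. The 3 kinds of sample overlapped, and the C arrays were the lowest of each kind. The difference from LD cells was 0.07 log2 (95% interval -0.78 to 0.92, adjusted p = 0.906) in MaSC organoids and 0.02 (-0.83 to 0.86, adjusted p = 0.977) in yMaSC organoids. The second probe set gave 7.30, 6.34 and 6.35 in LD cells, 5.79, 5.72 and 5.32 in MaSC organoids, and 5.71, 5.79 and 5.77 in yMaSC organoids. Here the LD arrays were all the higher, with LD cells A on top, and the differences were -1.05 log2 (adjusted p = 0.0102) and -0.91 (adjusted p = 0.0210). The latter call was lost without yMaSC organoids A (adjusted p = 0.0621) or B (0.0557).

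Of the genes that encode Jun proteins, the partners of the Fos proteins, Jun changed most. Its first probe set gave 12.40, 12.44 and 12.28 in LD cells, 9.30, 9.51 and 8.75 in MaSC organoids, and 9.46, 9.36 and 9.40 in yMaSC organoids. MaSC organoids C were the lowest, and every organoid array was at least 2.77 log2 below the LD arrays. Jun decreased 9.11-fold (-3.19 log2, SE 0.18, adjusted p = 6.57e-06) in MaSC organoids and 7.82-fold (-2.97 log2, SE 0.18, adjusted p = 9.16e-06) in yMaSC organoids. The second probe set gave -2.65 and -2.64 log2 (adjusted p = 3.33e-06 and 4.26e-06), with organoid arrays at 8.53 to 8.81 and LD arrays at 11.20 to 11.46.

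Junb, which often opposes Jun at shared targets, read 11.21, 10.85 and 11.18 in LD cells, 9.19, 9.43 and 8.90 in MaSC organoids, and 9.36, 9.33 and 9.19 in yMaSC organoids. The groups did not overlap, with a gap of 1.42 log2 between LD cells and organoids. The decrease was 3.75-fold (-1.91 log2, SE 0.16, adjusted p = 3.75e-05) and 3.45-fold (-1.79 log2, SE 0.16, adjusted p = 5.81e-05).

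Jund, the Jun gene known for steady expression in resting cells, had the smallest of the decreases that passed. It read 13.13, 12.86 and 13.19 in LD cells, 12.15, 12.17 and 11.07 in MaSC organoids, and 12.12, 12.19 and 11.20 in yMaSC organoids. The organoids C were about 1 log2 below the other organoids in both kinds, and all organoids were below the LD cells. The difference was -1.26 log2 (SE 0.34, adjusted p = 0.0189) in MaSC organoids and -1.22 (SE 0.34, adjusted p = 0.0225) in yMaSC organoids. Both calls were lost without LD cells A (adjusted p = 0.0546 and 0.0631) or LD cells C (0.0583 and 0.0674), and the second without yMaSC organoids C (-0.91 log2, adjusted p = 0.0600). The second probe set of Jund lay at 3.79 to 4.57 on all arrays, near the lower quartile, and did not pass (-0.25 and -0.39 log2, adjusted p = 0.216 and 0.0631). In yMaSC organoids it passed with a common median (-0.50 log2, adjusted p = 0.0260), without yMaSC organoids C (-0.49, 0.0331) and without both organoids C (-0.49, 0.0449).

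Atf3, a stress-induced bZIP factor that represses transcription as a homodimer, read 12.71, 12.38 and 12.54 in LD cells, 6.48, 7.34 and 5.66 in MaSC organoids, and 6.67, 7.44 and 8.18 in yMaSC organoids. The LD arrays lay close together, while the organoids were the most spread of all members, and a gap of 4.20 log2 lay between. Atf3 decreased 66.3-fold (-6.05 log2, SE 0.46, adjusted p = 2.47e-05) in MaSC organoids and 34.6-fold (-5.11 log2, SE 0.46, adjusted p = 6.32e-05) in yMaSC organoids. It was number 9 and number 24 of all genes from the largest decrease.

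**Figure D2:**
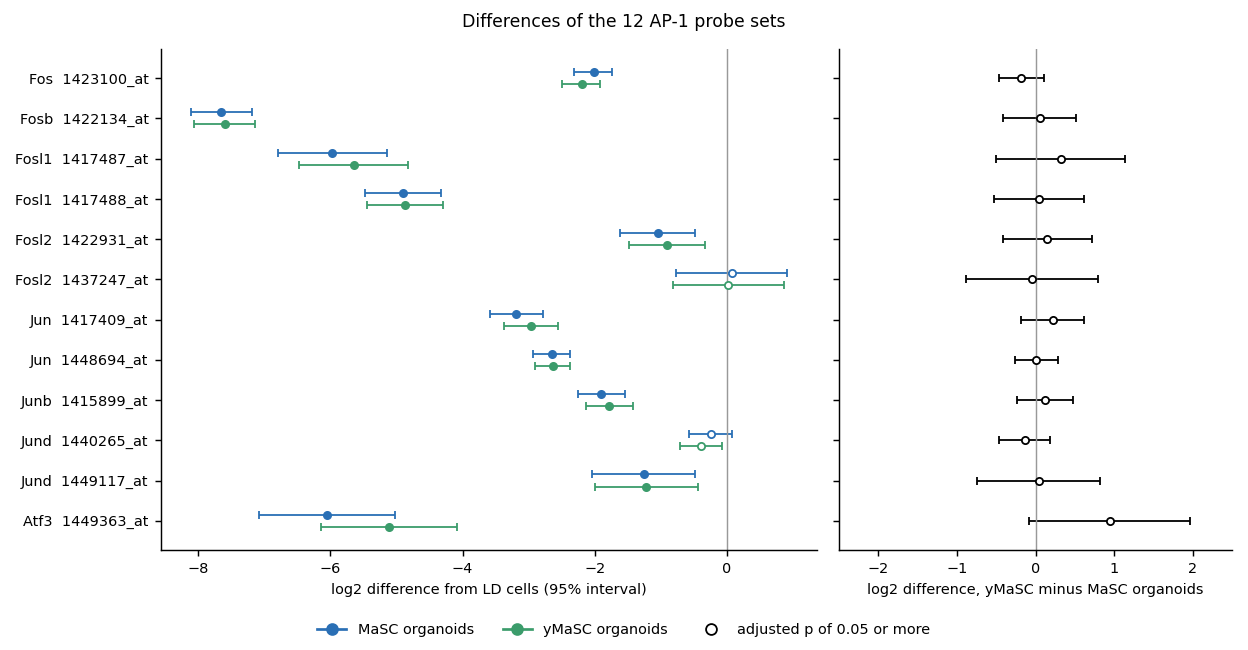
Log2 difference with its 95% interval for each of the 12 AP-1 probe sets, organoids minus LD cells (left) and yMaSC organoids minus MaSC organoids (right). Filled points have an adjusted p under 0.05. Fosb, Fosl1 and Atf3 lie below -4 on the left, and on the right every interval holds 0.

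The comparison between the 2 kinds of organoid asks whether organoids from converted LD cells differ from those of native MaSCs. None of the 8 AP-1 genes passed, and neither did any other gene (0% called by limma). An unadjusted p under 0.05 was found for 104 genes (0.572%), none of them an AP-1 gene. That is fewer than would fall under 0.05 without any difference. This fit left out the letter, with which organoids varied together, so that its spread held the letter effect. Differences could thus be missed, and 0 calls do not show that the kinds are alike. The levels of all 8 overlapped between the kinds. The share of all genes with such an overlap was not counted, so the overlap shows nothing particular to AP-1. Without the letter in the fit, the narrowest interval was that of Fos, at -0.18 log2 in yMaSC organoids relative to MaSC organoids (95% interval -0.46 to 0.10). Those of Junb (0.12, -0.24 to 0.48), Fosb (0.05, -0.41 to 0.51) and Jun (0.22, -0.18 to 0.62) were also within 1 log2 in both directions, and so were those of Fosl2 (-0.05, -0.90 to 0.79) and Jund (0.04, -0.75 to 0.83). The intervals of Fosl1 (0.32, -0.51 to 1.14) and Atf3 (0.94, -0.10 to 1.97) reached beyond 1 log2. For Atf3 the unadjusted p was 0.0709 and the adjusted p was 1. Its yMaSC organoids were higher by 0.19 log2 for letter A, 0.10 for letter B and 2.52 for letter C, and the difference ranged from 0.52 to 1.36 with 1 array left out at a time. With the letter as a paired block in the organoids alone, no AP-1 gene passed (limma, adjusted p from 0.964 to 0.980). No share of all genes is set beside this count, so it shows nothing particular to AP-1 and not that the kinds are alike. The narrowest interval was then that of Jund (-0.16 to 0.24), that of Fos was -0.47 to 0.11, and that of Fosl1 was -0.17 to 0.80, within 1 log2. The interval of Atf3, -0.32 to 2.19 (adjusted p = 0.964), was the one that still reached beyond 1 log2.

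Organoids of the same letter varied together. In the organoids, a test of the letter with the kind in the model called 1 of the 8 AP-1 genes, Jund (limma F test, adjusted p = 0.0125), where 5.52% of all genes passed. Jund in organoids C was 1.02 log2 below the mean of A and B, and the second probe set of Jund did not share the call (adjusted p = 0.602). No AP-1 gene was called when any 1 of the 6 organoid arrays was left out (0 genes in each case), or with the mean of a gene's probe sets. Fosl2, 0.98 log2 lower in organoids C, had an adjusted p of 0.0527, Fosb one of 0.0999, and the other 5 genes had values from 0.277 to 0.699. Genes of other lists moved with the letter too. The test called 5 of 24 other immediate early genes, 4 of 22 AP-1 targets, 4 of 10 heat shock genes and 2 of 8 YAP/TAZ targets. It also called 2 of 8 basal markers, 1 of 9 luminal markers and 0 of 10 leukocyte markers. Their directions differed. Of the early genes, Egr2 and Egr3 were highest in organoids C of each kind, and Btg2, Dusp1 and Ptgs2 lowest. Of the heat shock genes, Hspe1 was highest there, and Hspa1a, Hspa1b and Hspb1 lowest. Of the basal markers, Acta2, smooth muscle actin, read 12.37 and 11.45 in organoids C against 10.10 to 10.36 in the other organoids, and Oxtr, the oxytocin receptor, 10.05 and 9.65 against 8.26 to 8.83. The luminal marker Pgr, the progesterone receptor, read 10.47 and 9.83 in organoids C against 8.41 to 8.98. The part of stress and of these cells in the level of Jund was not tested.

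The genes with the most similar profiles were found by the distance between log2 profiles over the 9 arrays, each centered on its own mean, with 3 genes for each member. For Fosb they were H2-Aa, an MHC class II gene of antigen-presenting cells, Nipal1 and Csf3, which encodes the cytokine G-CSF. H2-Aa lay at a distance of 1.44, where a flat profile lay at 10.80. H2-Aa, like Ptprc among the genes nearest Fosl1, is a gene of leukocytes, but any gene with a decrease of like size lies near by this measure. A shared cell source was not tested. For Fosl1 they were Plaur, the urokinase receptor, Ptprc and Nipal1, the last at 1.29 against 8.32 for a flat profile. For Atf3 they were Hbegf, an EGF receptor ligand, the stress keratin Krt6a and Dmkn, at 1.25 or more against 8.14. For Jun they were Plk3, Klf5 and Pvr, at 0.43 to 0.59 against 4.40, and for Fos P2ry2, a nucleotide receptor, Gm14137 and Cenpl, at 0.34 to 0.38 against 3.02. Junb was nearest Nup50, Glipr2 and Nup210 (0.35 to 0.44 against 2.66), Jund nearest Pim3, Amotl2 and Slc5a6 (0.54 to 0.56 against 2.14), and Fosl2 nearest Lats2, Lncpint and Rhou (0.39 to 0.50 against 1.31). These distances rest on 3 kinds of sample and describe likeness alone.

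Other genes of the pathway were taken from lists of known members and counted by the same test. Of all genes, 15.2% and 14.3% were lower and 22.1% and 21.6% higher in MaSC and yMaSC organoids, beside which the list counts stand. Of 11 bZIP relatives that can join AP-1 dimers or share their sites, 6 were lower in both kinds of organoid and 1, Atf2, passed as higher in MaSC organoids alone (0.55 log2, adjusted p = 0.0252), at 0.44 (adjusted p = 0.0607) in yMaSC organoids, a difference between the kinds that did not pass. Of its 5 probe sets, 3 were higher and 0 lower in MaSC organoids, and 2 were higher and 1 lower in yMaSC organoids. The median was -0.78 and -0.69 log2. Maff, which encodes a small Maf protein, differed by -4.13 and -3.49 log2 in MaSC and yMaSC organoids. Mafk differed by -2.09 and -1.98, and Batf by -1.24 and -1.36. Jdp2, a repressor that pairs with Jun, differed by -2.27 and -2.13. Its second probe set was also lower, but by less, at -0.57 and -0.66 log2.

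The kinases and factors upstream of AP-1 had medians near 0. Of 16 with a probe set of their own, 5 were lower and 3 higher in each kind of organoid, and the medians were -0.06 and -0.10 log2. Those lower included Mapk8 (JNK1, which phosphorylates Jun), at -1.83 and -1.81 log2 with all 5 of its probe sets lower, the JNK kinase Map2k4 (-1.38 and -1.34), Srf, which encodes serum response factor (-1.49 and -1.34), and Crem (-1.11 and -0.90). Map2k1, which encodes MEK1, was higher by 0.85 and 0.89 log2, and Mapk14, p38 alpha, by 0.80 and 0.65, the latter with 2 of its 6 probe sets higher in MaSC organoids.

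Among 22 genes known as AP-1 targets, 13 were lower and 1 higher in MaSC organoids, and 14 lower and 1 higher in yMaSC organoids. Their medians were -1.79 and -1.05 log2. Plaur differed by -5.78 and -5.52 log2, Hbegf by -5.52 and -4.81, and Lif, a cytokine, by -4.72 and -4.21. Plau, which encodes urokinase, differed by -5.39 and -5.27. Its organoid levels, 3.09 to 3.81, lay near the lower quartile, so that this difference is a lower limit. The second probe set of Plau was also lower, but by less, at -3.47 log2 in both. Ivl, which encodes involucrin of the cornified envelope, was the 1 that rose, by 1.79 and 0.87 log2, and 1 of its 2 probe sets passed in MaSC organoids. Several members of this list are not regulated by AP-1 alone, and the counts describe the list, not the activity of AP-1.

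**Figure D3:**
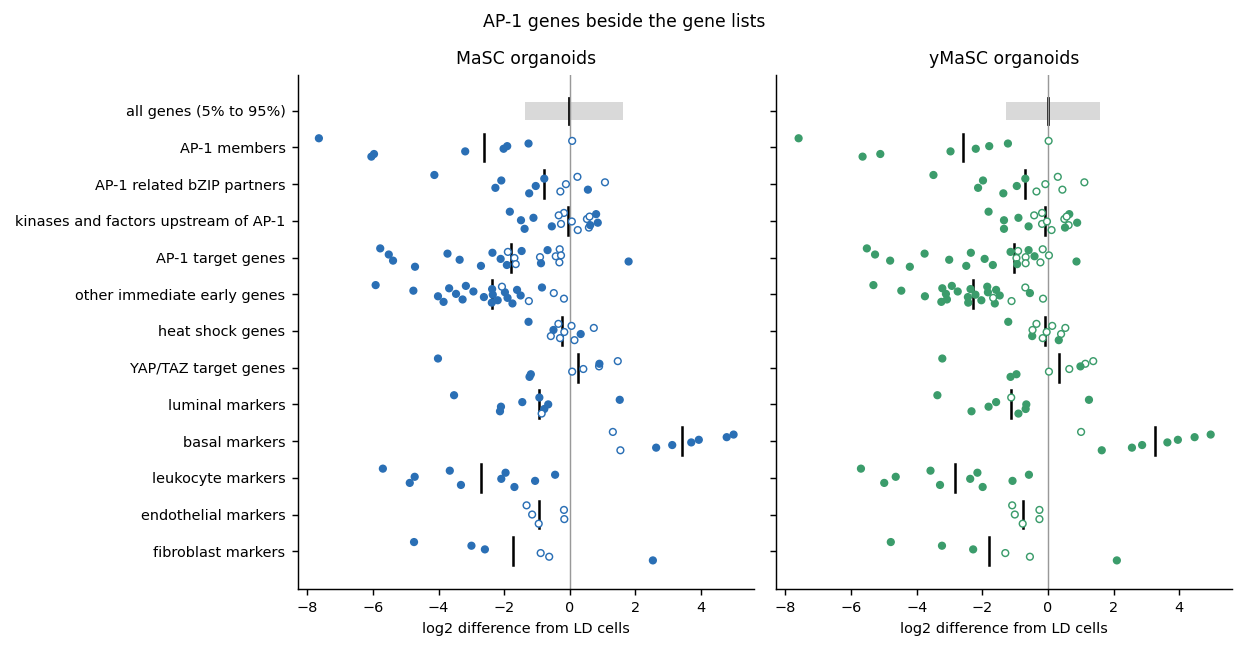
Log2 difference from LD cells of the genes in each list, for MaSC organoids (left) and yMaSC organoids (right). Each point is a gene, filled where the adjusted p is under 0.05, black bars are medians, and the gray bar spans the 5% to 95% range of all genes. The medians of the AP-1 genes (-2.60 and -2.58) and of the other immediate early genes (-2.36 and -2.29) lie farther below 0 than those of the upstream kinases and factors (-0.06 and -0.10).

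Immediate early genes outside the AP-1 family were lower as well. Of 24 such genes, 20 were lower and 0 higher in each kind of organoid, with medians of -2.36 and -2.29 log2. Klf4 differed by -5.92 and -5.32 log2, Klf2 by -4.77 and -4.47, and Csrnp1 by -3.85 and -3.75. The second probe set of Csrnp1 was also lower, but by less, at -0.38 and -0.41 log2. Ccn1, which encodes a matrix protein and is also a YAP target, differed by -4.02 and -3.22. The 4 that did not pass were Btg2, Socs3, Arc and Ptgs2, with values from -2.07 to -0.18 log2 in MaSC organoids. Egr1, a zinc finger factor induced together with Fos, differed by -2.37 and -2.43 log2, close to the values of Fos.

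Heat shock genes, which respond to stress by another route, had 1 of 10 higher and 2 lower in each kind of organoid, with medians of -0.24 and -0.10 log2. With 15.2% and 14.3% of all genes lower and 22.1% and 21.6% higher, these counts hardly set the list apart. Dnajb1 differed by -1.26 and -1.21 log2 and Hsp90aa1 by -0.50 and -0.48, whereas Dnaja1 was higher by 0.33 in both. Of 8 YAP/TAZ target genes, 3 were lower and 1 higher in each kind, with medians of 0.24 and 0.34 log2. Those lower were Ccn1, Amotl2 (-1.23 and -1.14) and Crim1 (-1.19 and -0.96), and Ajuba was higher (0.90 and 0.99). The other 4 did not pass: Ccn2, a classic YAP target, was at 0.89 log2 in MaSC organoids (adjusted p = 0.110) and at 1.14 in yMaSC organoids, just outside the threshold over genes and inside it over all single-gene probe sets, Axl at 1.46 and 1.38 (0.0790 and 0.0973), Ankrd1 at 0.41 and 0.65, and Lats2 at 0.07 and 0.03. The part of stress and of sorting in the AP-1 levels was not tested.

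**Figure D4:**
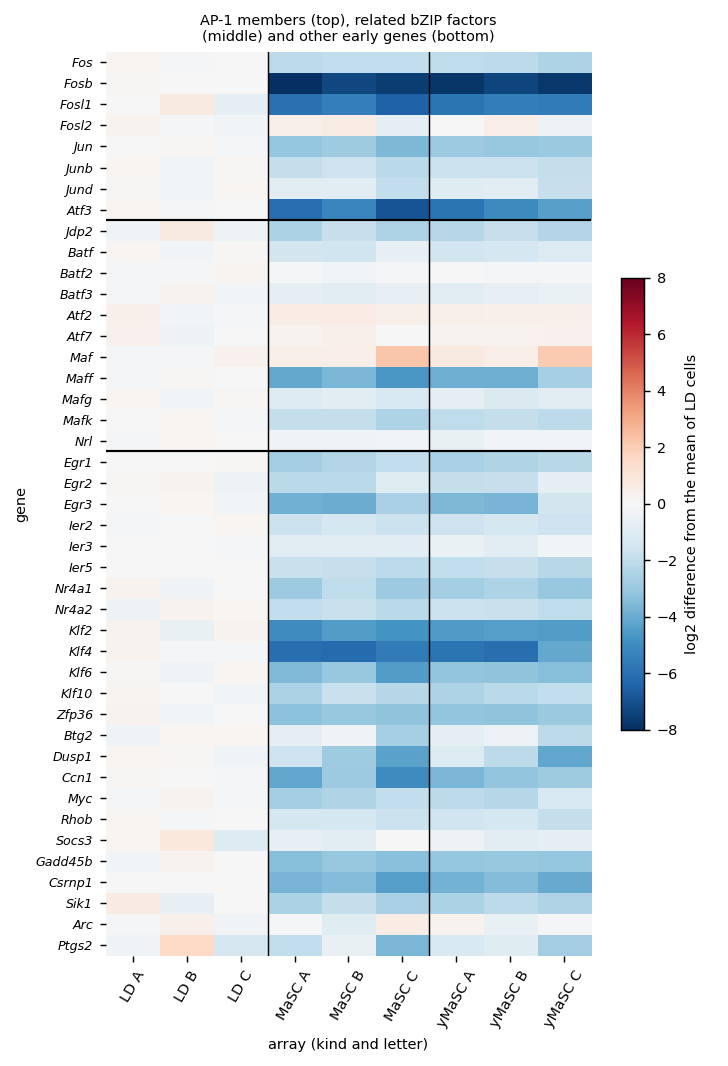
Log2 difference of each array from the mean of the LD cells (color scale, -8 to 8) for the 8 AP-1 genes (top), 11 related bZIP factors (middle) and 24 other immediate early genes (bottom), with arrays in columns by kind and letter. Fosb, Fosl1 and Atf3 are the darkest blue AP-1 rows in all 6 organoid arrays, Fosl2 stays near white, and Klf4 has the largest mean decrease of the other early genes (-5.92 and -5.32).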

How the data were processed

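Expression was measured in 9 samples on Affymetrix mouse arrays. The authors computed log2 expression values by RMA with a version not given in the sources used here, and deposited them. Quantile normalization in RMA removes shifts shared by all genes. The table held 0 columns of other samples. Of the probe sets, 34958 were annotated to 1 gene, 932 to several and 9211 to none, and 34754 of the first were found by gene identifier in the RefSeq table of GRCm38.p6, which also gave coordinates and promoters. Each of 18194 genes was represented by its probe set of highest mean, and all probe sets of the members were also compared.

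With R 4.3.3 and limma 3.58.1, the 3 groups were fitted in 1 model with an empirical Bayes spread, without a filter on low values. Calls were made where p, adjusted over all genes by Benjamini-Hochberg, was under 0.05. Folds are 2 to the power of the log2 difference. The steps were tested on simulated data. With 3 arrays a group, an exact 2-sided permutation test cannot go below p = 0.1, and the number of arrays limits the precision.

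The members and the gene lists were chosen with earlier results of these data known. Named are all members, up to 4 genes of each pathway list with the largest difference among those that passed in both comparisons, up to 2 that went the other way, and the 3 genes most like each member. Egr1, genes that did not pass, genes called by letter and the cell markers were named after their values were seen. Letters were taken to pair the organoids, whose deviations from group means correlated at r = 0.607, 0.611 and 0.649 for the same letters, and not LD cells with organoids, where r was 0.045 or less for the same letters. Alternatives were the letter as a block, other probe set rules, normalizations, filters, priors, weights, the compared groups alone, a 2-fold limit and arrays left out.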

Additional observations from a re-analysis of the deposited data

How the results depend on the processing

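The counts of 7 AP-1 genes lower and 0 higher than in LD cells became 6 lower when genes below the median level, Fosb among them, were left out, with the 2-fold limit, without LD cells A or C and, for organoids from yMaSCs, without yMaSC organoids C, and were 7 under the other alternatives. With the lowest probe set these were not the same genes: Jund lost its calls (-0.25 and -0.39 log2, adjusted p = 0.231 and 0.0693) and Fosl2 gained them. Leaving out 1 array at a time gave 6 to 7 lower in both comparisons. With the letter as a replicate block over all arrays the counts were 7 and 7. In the paired fits no AP-1 gene passed between the kinds of organoid.

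The count of AP-1 genes called by letter, 1, was 0 with the mean of a gene's probe sets, with the lowest probe set, and without both organoids C, and 2 with genes above the median level and with a trended and robust prior. With 1 array left out it ranged from 0 to 0, in fits with fewer arrays.

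Signs turned only where no call had been made with the probe sets of highest mean. For Fosl2 against LD cells, the values in organoids from MaSCs and yMaSCs were -0.49 and -0.45 log2 with the mean of a gene's probe sets, -1.05 and -0.91 with the lowest probe set (adjusted p = 0.0123 and 0.0248), -0.03 and -0.09 with a common median, and -0.04 and -0.08 with cyclic loess. They ranged from -0.19 to 0.49 and from -0.25 to 0.25 with 1 array left out. Between the kinds of organoid, the mean and the lowest probe set gave 0.05 and 0.15 for Fosl2 and -0.05 and -0.14 for Jund. Without both organoids C, Jund gave -0.01, the second probe set of Fosl1 -0.12 and that of Jun -0.07, which was -0.02 with array weights. With 1 array left out, the same comparison ranged from -0.16 to 0.23 for Fosb, -0.09 to 0.16 for the second probe set of Fosl1, -0.47 to 0.20 for Fosl2, -0.08 to 0.06 for that of Jun, -0.02 to 0.25 for Junb and -0.32 to 0.36 for Jund. The causes were not tested.

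Organoid levels of Fosb and of the second probe sets of Fosl1 and Jund lie near the lower quartile, which limits how well their differences are measured.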
